A study of Homo sapiens with 6 samples.

Results

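The mitochondrial ribosome genes examined here were the symbols of the deposited expression table that begin with MRPL or MRPS followed by a digit, with pseudogenes left out. The rule took 76 of 19977 symbols, of which 47 are named for the large subunit (MRPL) and 29 for the small subunit (MRPS). RNA was sequenced from U2OS, a cell line from a human osteosarcoma, after 48 hours with an siRNA against NUDT5 (siNUDT5, 3 libraries) or with a non-targeting siRNA (siCtrl, 3 libraries). Both groups were labelled untreated apart from the siRNA, and the labels do not tell whether replicates were separate cultures. The p-values therefore reflect library-to-library spread, and that spread may be technical. NUDT5 belongs to the NUDIX hydrolases and breaks down ADP-ribose, and the comparison asks what its loss does to gene expression. Values were TPM, a level scaled for transcript length and library total.

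Mitochondrial ribosomes translate the few messages encoded by mitochondrial DNA, all of which specify subunits of the respiratory chain and the ATP synthase. Their rRNAs come from the mitochondrial genome, whereas every one of their proteins is encoded in the nucleus, made in the cytosol and imported. Some proteins descend from those of the bacterial ribosome and others were gained in mitochondria, so a working particle needs many nuclear genes to be expressed together.

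NUDT5 had 3.04, 2.74 and 2.67 TPM in siNUDT5 libraries, against 46.2, 49.0 and 52.0 TPM in siCtrl libraries, a log2 change of -3.71 (limma, Benjamini-Hochberg adjusted p = 1.32e-06). Relative depth, read from the steps of low values, was 89.5% to 118% of siCtrl 1 in siNUDT5 libraries and 64.1% to 112% in siCtrl libraries, with siCtrl 2 the lowest. The mesenchymal genes VIM and COL1A1 averaged 3551 and 452 TPM in siNUDT5 and 3115 and 385 TPM in siCtrl. COL1A2 stayed at or under 0.393 TPM in siNUDT5 and 0.193 TPM in siCtrl, and the blood markers PTPRC and CD3E were at or near 0. Of the markers tested, ALPL, an osteoblast phosphatase, was called higher (10.0 TPM in siNUDT5 and 6.83 TPM in siCtrl, log2 change 0.49, limma adjusted p = 0.0472) and EPCAM, an epithelial adhesion gene, lower (5.39 TPM in siNUDT5 and 9.89 TPM in siCtrl, log2 change -0.74, limma adjusted p = 0.0271). The part of such marker changes in the results was not tested. In RNA from bulk cells, fewer cells that express a gene and less RNA per cell cannot be told apart.

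Of the 76 members, 75 reached a mean of 1 TPM over the 6 libraries and were tested in a fit across 12236 genes. Differences between siNUDT5 and siCtrl were small. MRPS6 was higher in siNUDT5 and MRPL45 and MRPS31 were lower, each by less than 1.5-fold, and the other 72 tested members did not pass an adjusted p of 0.05. The 3 calls among 75 members stand beside 16.1% of all tested genes called (10.9% higher and 5.20% lower). That split was 1334 higher and 636 lower genes, and with median-ratio scaling it was 1034 higher and 904 lower. At an unadjusted p under 0.05 there were 8 members, 5 of them higher and 3 lower in siNUDT5, against 3795 of the 12236 genes.

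A miss of the threshold does not show equality, so the intervals were read as well. The 95% interval of the change lay within a 1.5-fold change in either direction for 69 of 75 members (92.0%), against 69.6% of all tested genes. For MRPL genes this was 44 of 46 (95.7%) and for MRPS genes 25 of 29 (86.2%). The median size of the log2 change was 0.11 in members and 0.17 in all tested genes, with median standard errors of 0.0988 and 0.119. The 3 siNUDT5 values stood apart from the 3 siCtrl values in 16 members (21.3%), 9 higher and 7 lower in siNUDT5, where 37.3% of all tested genes did so.

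**Figure D1:**
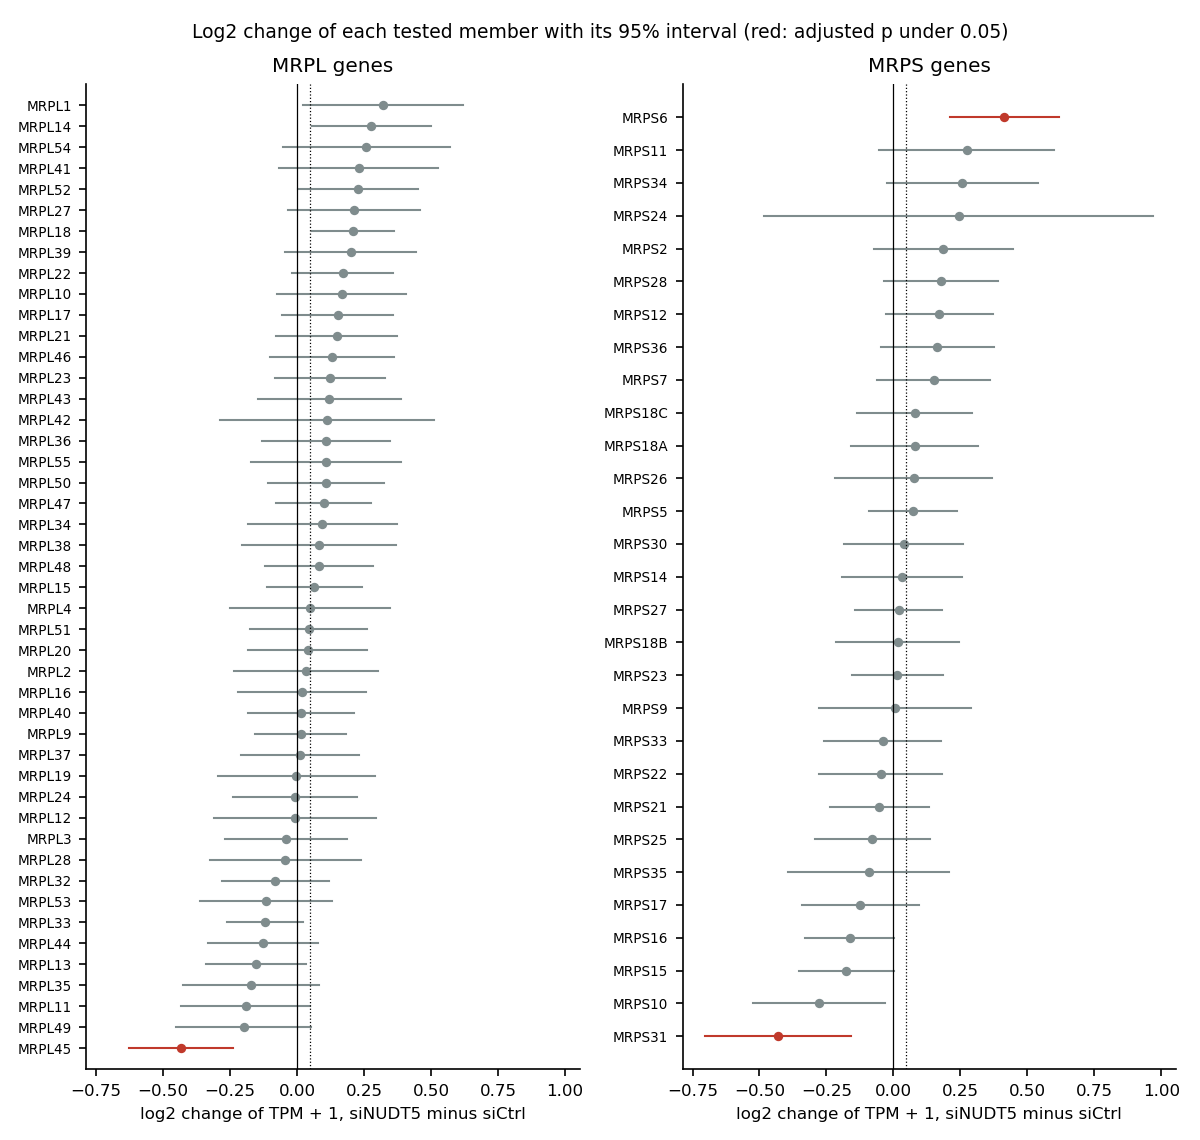
Log2 change of TPM + 1, siNUDT5 minus siCtrl, for each of the 46 tested MRPL genes and 29 MRPS genes, with points for the estimate and lines for its 95% interval. Red marks the 3 members with an adjusted p under 0.05, the solid line is 0 and the dotted line is the median of all tested genes, 0.05, close to which most members sit.

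Large and small subunit genes were next compared as summed levels. MRPL genes summed to 5727, 5947 and 5600 TPM in siNUDT5 libraries, against 5712, 5560 and 5838 TPM in siCtrl libraries. MRPS genes summed to 3146, 3246 and 3133 TPM in siNUDT5 libraries, against 3143, 3105 and 3198 TPM in siCtrl libraries. The groups overlapped in both sums, and each mean differed by less than the SD within either group: 5758 ± 175 TPM in siNUDT5 and 5704 ± 139 TPM in siCtrl for MRPL, and 3175 ± 61.8 TPM in siNUDT5 and 3148 ± 46.8 TPM in siCtrl for MRPS (SD, n = 3 each).

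The MRPL sum was 1.82, 1.83 and 1.79 times the MRPS sum in siNUDT5 libraries and 1.82, 1.79 and 1.83 times in siCtrl libraries. The mean ratio differed by 0.112% between the groups, less than the spread between libraries. All members together held 0.873% to 0.919% of the TPM of a siNUDT5 library and 0.867% to 0.904% of a siCtrl library. Structures place MRPS18A and MRPS30 in the large subunit, and MRPS36 is now known as a part of the 2-oxoglutarate dehydrogenase complex. With those 3 reassigned, the ratio was 2.06 ± 0.0278 in siNUDT5 and 2.04 ± 0.0203 in siCtrl (SD, n = 3 each).

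**Figure D2:**
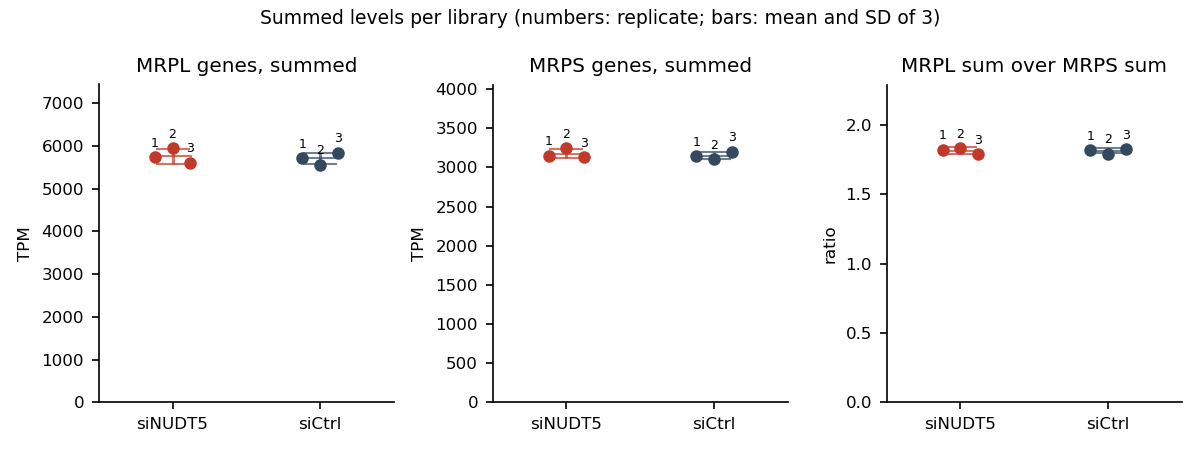
Summed TPM of the MRPL genes, summed TPM of the MRPS genes and the ratio of these sums in each library, with siNUDT5 left of siCtrl, numbers for the replicate, and bars for the mean and SD of 3. In all 3 panels the groups overlap, and the ratio lies between 1.79 and 1.83 in every library.

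Gene by gene, the median log2 change was 0.07 in MRPL genes (quartiles -0.01 and 0.14) and 0.03 in MRPS genes (quartiles -0.05 and 0.16), beside 0.05 in all tested genes. Estimates were above 0 for 32 of 46 MRPL genes and 19 of 29 MRPS genes, beside 7065 of all 12236 tested genes. When the libraries were scaled by their median ratio, the median of all genes was -0.0049, that of MRPL genes 0.02 and that of MRPS genes -0.02. With quantile normalization they were 0.02 for MRPL and -0.02 for MRPS genes, so the small MRPS median changed sign with the scaling and the MRPL median kept its sign but shrank. Each library's median deviation from the mean of the siCtrl libraries was 0.03, 0.12 and 0.02 for MRPL genes in siNUDT5 and 0.04, -0.13 and 0.05 in siCtrl. The low siCtrl value is that of siCtrl 2, and the other siCtrl libraries lay within the siNUDT5 range.

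Levels differed far more between members than between groups. The median MRPL gene had a mean of 78.5 TPM over the 6 libraries and the median MRPS gene 102.7 TPM, against 22.4 TPM for the median tested gene. The highest were MRPL33, a small homologue of a bacterial large subunit protein, with 710 TPM, MRPL51, a mitochondria-specific protein, with 417 TPM, and MRPL3, a homologue of bacterial L3 near the catalytic centre, with 363 TPM. In the small subunit, MRPS18B led with 259 TPM, followed by MRPS23, a mitochondria-specific protein, with 257.5 TPM and MRPS15, a homologue of bacterial S15, with 234.5 TPM.

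MRPL55 had 14.9 TPM, MRPL12 15.7 TPM and MRPL34 24.6 TPM, the lowest of the tested MRPL genes. MRPL12 is the homologue of bacterial L7/L12 and forms the stalk that recruits translation factors, where a ribosome carries several copies. It had 14.2, 17.8 and 14.8 TPM in siNUDT5 libraries, against 15.3, 13.8 and 18.2 TPM in siCtrl libraries, and the groups overlapped. The mean level spanned 47.8-fold over 46 MRPL genes and 10.2-fold over the 28 MRPS genes of at least 10 TPM. Across the 75 tested members, levels in siNUDT5 and siCtrl had r = 0.993 on the log2 scale and rho = 0.989, a description over genes that share libraries.

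MRPL30 was listed at 0 in all 6 libraries and was not tested. Its annotated exons overlap those of other protein-coding genes on the same strand. MRPS24, the homologue of a bacterial protein of the small subunit head, had 0.618, 2.57 and 1.05 TPM in siNUDT5 libraries and 0.828, 0.431 and 1.73 TPM in siCtrl libraries, far below the next lowest small subunit genes MRPS14 at 25.3 TPM and MRPS28 at 29.9 TPM. The groups overlapped, and its interval, from -0.48 to 0.97 on the log2 scale, was the widest of all tested members. The read-through symbol URGCP-MRPS24, whose annotated exons overlap those of MRPS24 on the same strand, was listed at 0 in every library. No source used here gives how reads shared by such genes were assigned, so the levels of MRPL30 and MRPS24 are uncertain.

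**Figure D3:**
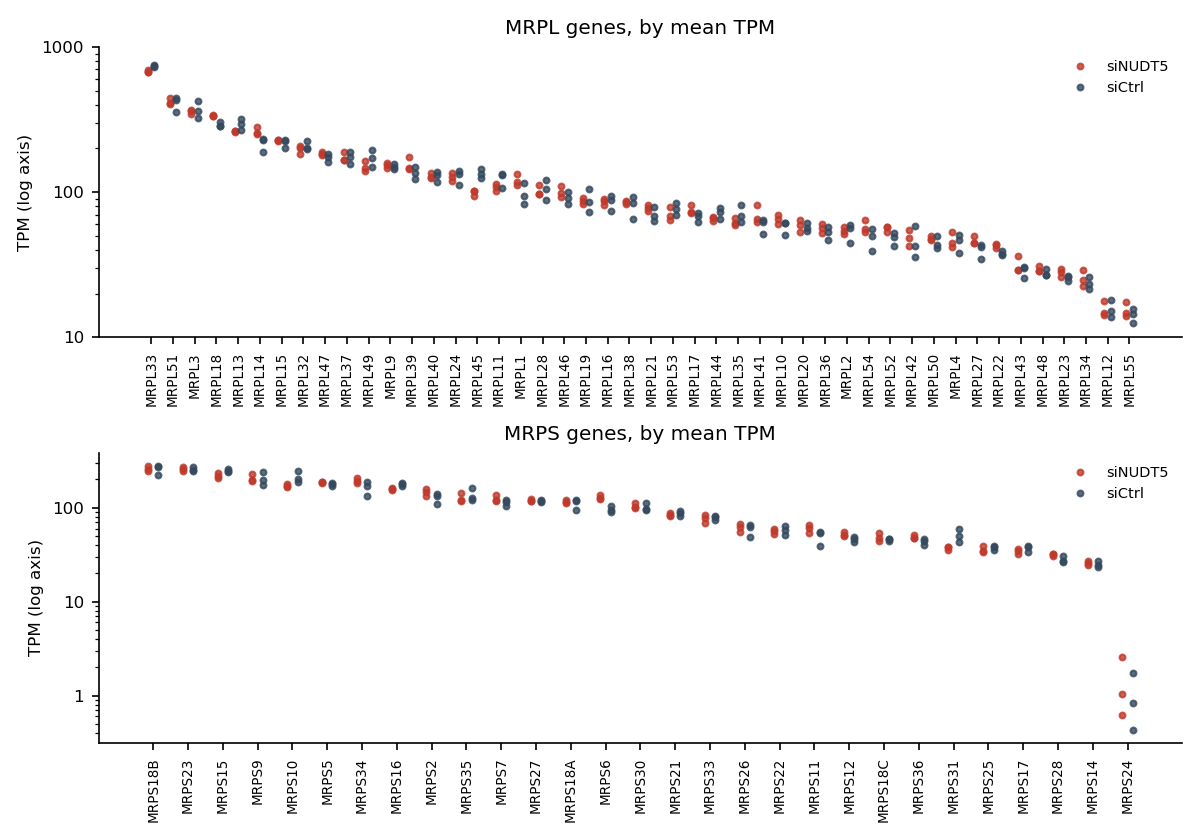
TPM of each tested member in each of the 6 libraries on a log axis, with MRPL genes above and MRPS genes below, ordered by mean level, siNUDT5 values left of siCtrl values. The range between members, from MRPL33 at 710 TPM to MRPS24 at 1.20 TPM, is much wider than the distance between groups for any member.

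MRPL45 lies at the exit of the peptide tunnel and tethers the large subunit to the inner membrane, where newly made proteins are inserted. It had 94.4, 101.7 and 101.2 TPM in siNUDT5 libraries, against 124.3, 144.8 and 133.8 TPM in siCtrl libraries. All siNUDT5 values were below all siCtrl values. The log2 change was -0.43 (SE 0.0852, 95% interval -0.63 to -0.24, limma with Benjamini-Hochberg adjusted p = 0.0123), or 73.8% of the siCtrl mean.

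MRPS31 is a mitochondria-specific protein of the head of the small subunit. It had 38.1, 35.7 and 37.9 TPM in siNUDT5 libraries, against 43.0, 59.2 and 50.5 TPM in siCtrl libraries. The groups did not overlap, and siCtrl 2 was the highest library. Its log2 change was -0.43 (SE 0.120, 95% interval -0.70 to -0.16, limma with Benjamini-Hochberg adjusted p = 0.0436), or 73.2% of the siCtrl mean. Left without the filter on low genes, the fit gave an adjusted p of 0.0664.

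MRPS6, the homologue of bacterial S6 in the platform of the small subunit, was the one member called higher. It had 122.6, 126.1 and 136.5 TPM in siNUDT5 libraries, against 104.9, 89.8 and 93.9 TPM in siCtrl libraries. Again no siNUDT5 value lay among the siCtrl values. The log2 change was 0.41 (SE 0.0890, 95% interval 0.21 to 0.62, limma with Benjamini-Hochberg adjusted p = 0.0175), or 133% of the siCtrl mean. With median-ratio scaling the adjusted p was 0.0509 and with quantile normalization 0.0543.

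Annotated exons of MRPS6 overlap those of SLC5A3, a myo-inositol transporter gene, on the same strand. SLC5A3 averaged 27.8 ± 3.16 TPM in siNUDT5 and 26.4 ± 5.98 TPM in siCtrl (SD, n = 3 each), a log2 change of 0.08 that was not called (limma, Benjamini-Hochberg adjusted p = 0.761). RefSeq lists pseudogenes by name for MRPL45 (2), MRPS31 (3) and MRPS6 (3), and for 41 members in all. Exons of 34 members overlap those of another protein-coding gene, on the opposite strand in 21. No source used here gives how reads shared with copies or antisense neighbours were treated.

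Whether the 3 passed depended on the libraries and the model used, while their direction did not. With all 6 libraries and the replicate number as a block, 0 members and 6.04% of all tested genes were called. Without siCtrl 2 all 3 were still called, with log2 changes of -0.38 for MRPL45, -0.32 for MRPS31 and 0.37 for MRPS6, and 10 members were called in all, 5 higher and 5 lower (13.3%), while 31.1% of all tested genes were called. The additional 7 were MRPL1, MRPL18, MRPL39 and MRPS28 as higher and MRPL11, MRPL49 and MRPS16 as lower. Without siCtrl 1 the 3 and MRPS10 were called. Without siCtrl 3 or any 1 siNUDT5 library no member was called, and 6.26% to 7.01% of all tested genes were. In those 4 fits the log2 changes were about as large as with all libraries, -0.45 to -0.40 for MRPL45, -0.45 to -0.40 for MRPS31 and 0.37 to 0.45 for MRPS6.

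Members next in size did not pass. MRPS10, the homologue of bacterial S10 in the head of the small subunit, had 179.6, 166.7 and 171.3 TPM in siNUDT5 libraries, against 186.0, 245.2 and 201.0 TPM in siCtrl libraries. The groups did not overlap, but siCtrl 1 lay close to the siNUDT5 values, and the log2 change of -0.28 had an adjusted p of 0.118 in limma with Benjamini-Hochberg adjustment. Without siCtrl 2 the change of MRPS10 was -0.16 (adjusted p = 0.0919). Other negative estimates were -0.20 for MRPL49, a mitochondria-specific protein, -0.19 for MRPL11, at the base of the stalk, and -0.18 for MRPS15.

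MRPL1, whose bacterial counterpart forms the mobile stalk beside the exit site for tRNA, had 134.2, 112.9 and 117.9 TPM in siNUDT5 libraries, against 82.7, 116.5 and 94.8 TPM in siCtrl libraries. siCtrl 2 alone lay among the siNUDT5 values, and the log2 change of 0.32 had an adjusted p of 0.137 with all 6 libraries and 0.00225 without siCtrl 2. MRPL14, a homologue of bacterial L14 on the face that meets the small subunit, had 254.7, 280.7 and 252.6 TPM in siNUDT5 libraries, against 228.4, 190.5 and 232.8 TPM in siCtrl libraries. Its groups did not overlap, and its log2 change of 0.28 had an adjusted p of 0.0892 in limma. Further estimates were 0.26 for MRPL54 and 0.26 for MRPS34, both mitochondria-specific, and 0.27 for MRPS11, a homologue of bacterial S11. Without siCtrl 2 these 3 estimates were each 0.12.

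**Figure D4:**
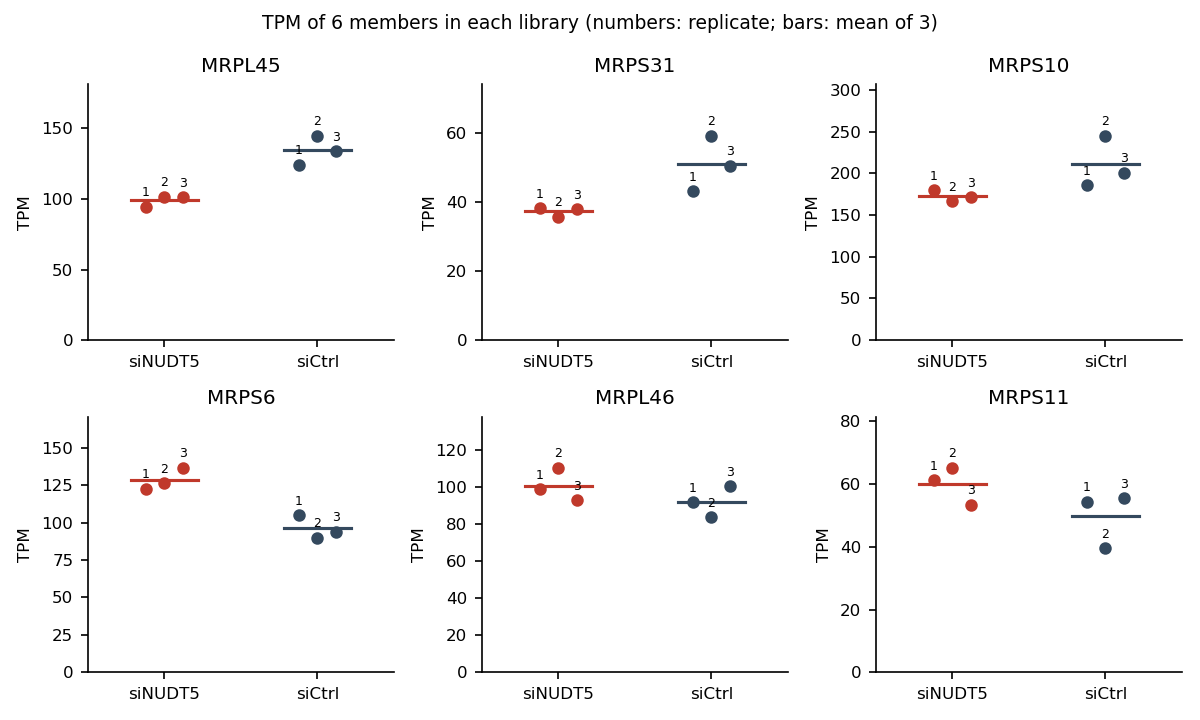
TPM of 6 members in each library, with siNUDT5 left of siCtrl, numbers for the replicate and bars for the mean of 3. MRPL45, MRPS31 and MRPS10 lie lower and MRPS6 higher in all siNUDT5 libraries than in all siCtrl libraries, MRPS10 without passing the test, while MRPL46 and MRPS11, neighbours with opposite strands, overlap between groups.

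By place in the ribosome, no class had more than 1 member called, counts that stand beside 16.1% of all tested genes called and are no result about a class. Among 28 large subunit homologues of bacterial proteins none was called (3 at an unadjusted p under 0.05, all higher), with a median log2 change of 0.04. Among 17 mitochondria-specific large subunit proteins MRPL45 was called, with a median of 0.08. The small subunit had 1 of 15 bacterial homologues called, MRPS6, with a median of 0.07, and 1 of 9 mitochondria-specific proteins called, MRPS31, with a median of -0.04. These medians stand beside 0.05 for all tested genes.

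The 6 proteins around the tunnel exit had a median of 0.11, with MRPL45 at -0.43 and the remaining members up to 0.17 (MRPL22). All 5 proteins of the central protuberance had positive estimates, from 0.01 for MRPL40 to 0.21 for MRPL18, and none was called. Of all 12236 tested genes, 7065 had positive estimates. The 3 stalk proteins were at 0.17 for MRPL10, -0.19 for MRPL11 and -0.01 for MRPL12. The 8 head proteins of the small subunit had a median of -0.02, and 4 of 8 estimates were positive. The MRPS18 paralogues, which sit at different places of the ribosome, were at 0.08 (MRPS18A), 0.02 (MRPS18B) and 0.08 (MRPS18C). Of 12 members with known inherited defects of mitochondrial translation, none was called (0 at an unadjusted p under 0.05), and the median was 0.00.

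Of the 76 members, 67 had a promoter in the RefSeq table (GRCh38.p14, 250 bases before to 50 after the annotated start). Words for 3 factors known to act on nuclear genes for mitochondrial proteins were searched on both strands. AANATGGC, the YY1 word, was in 25 of 67 member promoters (37.3%), against 10.7% of 9223 promoters of tested genes and 6.82% of all 27305. The share was 37.5% in MRPL and 37.0% in MRPS promoters. CCGGAAGT, an ETS word as bound by GABPA, was in 11 (16.4%) against 9.22% of tested genes, with 22.5% in MRPL and 7.41% in MRPS promoters. CGCATGCG, an NRF1 word, was in 3 (4.48%) against 3.96%. The 3 words do not contain one another, though matches could overlap in a window.

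In 22 of the 25 member promoters with the YY1 word it lay after the annotated start on the transcribed strand (88.0%), against 49.7% of the 984 tested-gene promoters that hold it. These matches began between base 7 (MRPL38) and base 36 (MRPL22) after the start. The YY1 word contains ATG, the letters of a start codon. Whether the matches cover the start codons of the proteins was not tested, for members or for other genes. A match is a description of letters, not a bound site. Members with the word had a median log2 change of 0.08 (n = 25, 1 called lower) and those without it 0.01 (n = 41, 1 called higher and 1 lower), so the calls fell on both sides. Promoters of the members that the comparison turns on are given 5′ to 3′ on the transcribed strand, with any of the 3 words in capitals. They lie at chr17:38296918-38297217 on the plus strand, chr6:42217812-42218111 on the minus strand, chr13:40771141-40771440 on the minus strand and chr21:34073328-34073627 on the plus strand.
MRPL45: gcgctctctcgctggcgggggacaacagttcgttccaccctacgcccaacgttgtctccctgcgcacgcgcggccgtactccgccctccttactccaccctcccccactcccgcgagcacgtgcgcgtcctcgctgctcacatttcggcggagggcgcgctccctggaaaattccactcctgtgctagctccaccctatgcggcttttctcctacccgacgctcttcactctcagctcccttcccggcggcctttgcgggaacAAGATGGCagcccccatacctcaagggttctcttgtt
MRPS10: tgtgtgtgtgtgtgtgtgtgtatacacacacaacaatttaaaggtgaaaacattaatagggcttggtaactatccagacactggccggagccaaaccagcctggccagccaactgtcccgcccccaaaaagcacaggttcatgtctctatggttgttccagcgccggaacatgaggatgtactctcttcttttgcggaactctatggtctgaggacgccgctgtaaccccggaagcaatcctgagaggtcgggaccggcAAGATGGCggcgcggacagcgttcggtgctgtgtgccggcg
MRPS31: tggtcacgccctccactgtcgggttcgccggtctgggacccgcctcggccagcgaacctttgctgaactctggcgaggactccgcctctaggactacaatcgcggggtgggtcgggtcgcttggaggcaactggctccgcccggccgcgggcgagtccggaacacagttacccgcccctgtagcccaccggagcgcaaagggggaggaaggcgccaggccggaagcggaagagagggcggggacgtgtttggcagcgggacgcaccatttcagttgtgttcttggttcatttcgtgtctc
MRPS6: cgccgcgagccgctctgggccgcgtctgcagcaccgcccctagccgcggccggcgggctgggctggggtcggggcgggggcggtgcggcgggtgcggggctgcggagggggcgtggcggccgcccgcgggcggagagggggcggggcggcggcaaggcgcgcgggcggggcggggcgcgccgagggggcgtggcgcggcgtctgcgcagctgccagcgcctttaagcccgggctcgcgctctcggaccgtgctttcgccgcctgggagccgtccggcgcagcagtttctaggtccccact
MRPL45 and MRPS10 carry the YY1 word from bases 14 and 10 after the start, and the windows of MRPS31 and MRPS6 hold none of the 3 words. The GC content of these windows was 64.0% for MRPL45, 54.7% for MRPS10, 66.0% for MRPS31 and 82.0% for MRPS6.

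One large and one small subunit gene share a promoter window. MRPL46, a protein of the central protuberance, on the minus strand, and MRPS11 on the plus strand have starts 320 bases apart, and the windows share 181 bases at chr15:88467458-88467638. The window of MRPL46 at chr15:88467339-88467638 is shown because its first 181 bases are the shared stretch, read in the opposite direction in MRPS11. The YY1 word, in capitals, lies outside that stretch, from base 9 after the MRPL46 start, and the window of MRPS11 does not hold it.
MRPL46: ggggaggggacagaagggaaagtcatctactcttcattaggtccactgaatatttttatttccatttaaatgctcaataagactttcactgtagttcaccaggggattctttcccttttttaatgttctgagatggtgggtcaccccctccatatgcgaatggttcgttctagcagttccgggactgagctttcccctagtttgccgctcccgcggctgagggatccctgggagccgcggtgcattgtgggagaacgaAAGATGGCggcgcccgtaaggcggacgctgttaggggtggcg
MRPL46 had 98.5, 110.1 and 92.6 TPM in siNUDT5 libraries, against 91.6, 83.4 and 100.4 TPM in siCtrl libraries. MRPS11 had 61.1, 65.1 and 53.3 TPM in siNUDT5 libraries, against 54.3, 39.5 and 55.4 TPM in siCtrl libraries. Both overlapped between groups, siNUDT5 2 was the highest library for both and siCtrl 2 the lowest for both. The log2 changes were 0.13 (adjusted p = 0.434) and 0.27 (adjusted p = 0.231) in limma with Benjamini-Hochberg adjustment.

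A few words of 7 bases, picked earlier from the log2 changes of these same libraries, were looked up in the longest 3′ UTR that GENCODE 29 annotates for each of 74 members. AAGACTT or AGACTTA was in 8 members (10.8%), against 22.5% of 11457 tested genes, and GATTAAC in 1 (1.35%), against 6.19%. Because the words came from these data, the shares are a description only. They were also not matched for 3′ UTR length, and a longer sequence has more places for a word. The 3′ UTRs of the 8 members had 1488 (MRPS10) to 14992 bases (MRPL42). Those of the other searched members had 60 (MRPL41) to 3126 bases (MRPL35). MRPL45, MRPS31 and MRPS6 hold none of these words. The log2 changes of the 8 were of both signs, -0.28 for MRPS10, -0.16 for MRPS16, -0.08 for MRPS25, -0.04 for MRPS33, 0.01 for MRPS23, 0.03 for MRPS14, 0.11 for MRPL42 and 0.21 for MRPL27, and none was called. The sites of MRPS10, MRPS16 and MRPL27 are shown, with the word in capitals, because their groups did not overlap. MRPS10 and MRPS16 were lower and MRPL27 higher in every siNUDT5 library than in every siCtrl library. The groups stood apart in 37.3% of all tested genes, and a link between word and change was not tested.
MRPS10: gcttgtgtatcAGACTTAcgttactgtca
MRPS16: tactggcttccAAGACTTcctgcttcaaa
MRPL27: ttcattattctAAGACTTcttcctttgta
MRPL27: ctgtgctctacAAGACTTttgtccacgtg
MRPL27, a homologue of bacterial L27 near the catalytic centre, had 44.4, 49.9 and 44.7 TPM in siNUDT5 libraries, against 41.8, 34.7 and 43.3 TPM in siCtrl libraries, and its change of 0.21 was not called (limma, Benjamini-Hochberg adjusted p = 0.220). MRPS16, a homologue of bacterial S16, had 158.1, 163.3 and 154.5 TPM in siNUDT5 libraries, against 184.9, 171.3 and 177.1 TPM in siCtrl libraries. The groups did not overlap, and the log2 change of -0.16 was not called (limma, Benjamini-Hochberg adjusted p = 0.166).

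Among the siCtrl libraries siCtrl 2 stood apart. The median distance over members, on the log2 scale, was 0.248 between siCtrl 2 and siCtrl 1 and 0.202 between siCtrl 2 and siCtrl 3, while the other 4 within-group pairs were 0.0684 to 0.128 apart. It was below both other siCtrl libraries in 47 members and above both in 22. The deviations ranged from -0.64 for MRPS24 to 0.57 for MRPL42, with a median of -0.11, and went with the GC content of the transcript, which spans 35.0% to 71.9% in members (r = -0.75 and rho = -0.79 over 75 members). Over 11570 tested genes r was -0.81 and rho -0.83. MRPS31 (0.34), MRPS10 (0.34) and MRPL45 (0.17) were high in siCtrl 2 and MRPS6 (-0.14) was low, so for each of them siCtrl 2 lay on the side away from the siNUDT5 values. The values of these members without siCtrl 2 are given above, and the cause of its deviation was not tested.

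**Figure D5:**
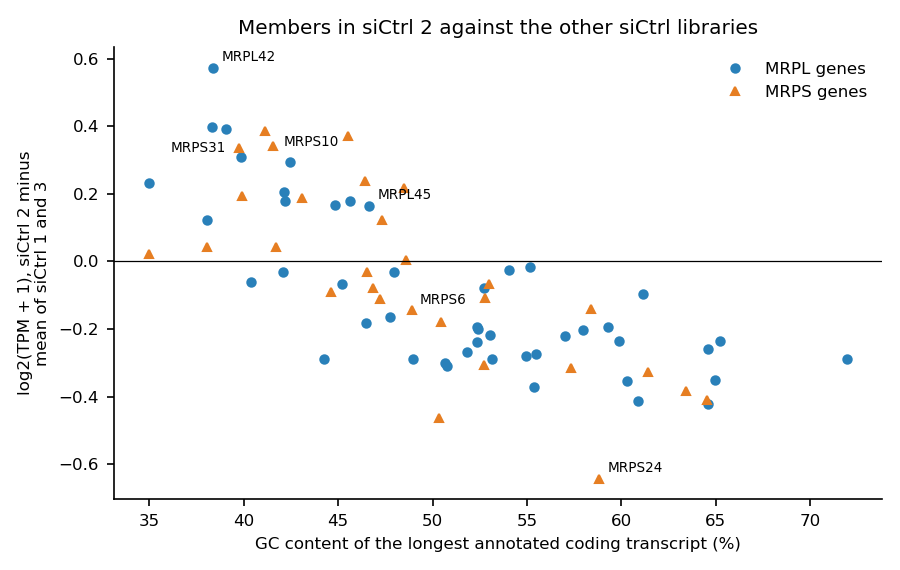
Log2(TPM + 1) of each member in siCtrl 2 minus the mean of siCtrl 1 and 3, against the GC content of its longest annotated coding transcript in percent, with circles for MRPL and triangles for MRPS genes. Values run down with GC content over 75 members, from 0.57 at MRPL42 to -0.64 at MRPS24.

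Proteins of the mitochondrial ribosome that carry other symbols were read beside the members. None of 7 was called (1 at an unadjusted p under 0.05), and the median was 0.17. AURKAIP1, a small subunit protein, had 93.9, 111.8 and 104.0 TPM in siNUDT5 libraries, against 90.3, 80.3 and 89.5 TPM in siCtrl libraries, without overlap (log2 change 0.25, limma Benjamini-Hochberg adjusted p = 0.113). DAP3, a GTP-binding protein of the head, had 131.7, 131.0 and 122.5 TPM in siNUDT5 libraries, against 140.5, 151.0 and 137.2 TPM in siCtrl libraries, also without overlap (-0.15, adjusted p = 0.219). CHCHD1 (0.19), PTCD3 (0.19), GADD45GIP1 (0.17), MRP63 (0.15) and the peptidyl-tRNA hydrolase ICT1 (-0.06) were not called. Without siCtrl 2 CHCHD1 was at 0.07 and GADD45GIP1 at 0.05.

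Among factors that build and serve the ribosome, 2 of 25 tested assembly factors were called and 1 of 16 translation factors, both smaller shares than the 16.1% of all tested genes. Both assembly factors called were higher, and the list's median was 0.01. MPV17L2, an inner membrane protein needed for ribosome assembly, had 19.4, 21.7 and 18.9 TPM in siNUDT5 libraries, against 12.7, 14.0 and 12.7 TPM in siCtrl libraries, without overlap (log2 change 0.57, adjusted p = 0.00749 in limma). METTL15, which methylates the small subunit rRNA, averaged 13.8 ± 0.296 TPM in siNUDT5 and 9.83 ± 1.90 TPM in siCtrl (SD, n = 3 each, log2 change 0.47, limma adjusted p = 0.0469). The translation factors had a median of -0.03, and the one called was OXA1L, the insertase that receives new proteins at the tunnel exit beside MRPL45. OXA1L had 91.5, 96.2 and 90.9 TPM in siNUDT5 libraries, against 123.6, 113.8 and 122.7 TPM in siCtrl libraries, without overlap (log2 change -0.37, limma adjusted p = 0.0158).

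Of 9 genes for transcription and copying of mitochondrial DNA, POLG was higher, and its product is the DNA polymerase rather than a transcription factor (40.4 ± 2.11 TPM in siNUDT5 and 31.3 ± 3.11 TPM in siCtrl, SD, n = 3 each, log2 change 0.36, limma adjusted p = 0.0444). Among 8 tested regulators of nuclear genes for mitochondrial proteins only MYC was called. It had 155.3, 147.9 and 146.0 TPM in siNUDT5 libraries, against 196.1, 189.7 and 186.6 TPM in siCtrl libraries, without overlap (log2 change -0.35, limma adjusted p = 0.0143). NRF1 (0.00), GABPA (-0.21), GABPB1 (-0.02), YY1 (0.07), ESRRA (0.12), PPARGC1B (0.20) and PPRC1 (-0.05) were not called. Without siCtrl 2 the estimate of GABPA was 0.08, of GABPB1 0.13 and of YY1 0.23. PPARGC1A, under the filter, had 0.692, 0.961 and 0.718 TPM in siNUDT5 libraries and 0.309, 0.295 and 0.307 TPM in siCtrl libraries.

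The messages that mitochondrial ribosomes translate had a median log2 change of -0.17 over 13 genes, with 12 of 13 estimates negative. None of them was called (2 at an unadjusted p under 0.05, both lower). Nuclear-encoded subunits of complex I, part of the respiratory chain, had a median of 0.09 over 37 genes, with NDUFA5 called higher (21.5 ± 2.39 TPM in siNUDT5 and 12.8 ± 3.08 TPM in siCtrl, SD, n = 3 each, log2 change 0.72, limma adjusted p = 0.0215). Cytosolic ribosomal proteins had a median of -0.10 over 74 genes, with RPS20 called lower (log2 change -0.27, limma adjusted p = 0.0375) and 60 of 74 estimates negative, against 24 of 75 in mitochondrial ribosomal proteins. The difference between the lists was not tested, and 5171 of all 12236 tested genes had negative estimates. Of the genes called in these related lists, MPV17L2 was called whichever library was left out. METTL15, OXA1L, POLG, MYC, NDUFA5 and RPS20 were not called without siCtrl 3 or any 1 siNUDT5 library, nor METTL15 and RPS20 without siCtrl 1.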

How the data were processed

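Libraries were made with a strand-specific mRNA kit, per the labels' protocols, and grouped by the sample titles. The authors deposited TPM for each gene symbol in 6 libraries. STAR 2.7.3a, DESeq2 1.22.1 and hg19 appear without roles in the submitters' processing notes. The tool behind the TPM, its annotation and its use of strand remain not given in the sources used here. TPM keeps no total depth, and only the relative depth of the libraries was read from low values.

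Tests used limma 3.58.1 in R 4.3.3 (lmFit, eBayes with a trend) on log2(TPM + 1), as a two-sided comparison of siNUDT5 minus siCtrl over the 12236 genes whose mean reached 1 TPM. A gene was called at a Benjamini-Hochberg adjusted p under 0.05 over all of them. The pseudocount of 1 understates changes of low genes. The fit was tested on simulated data with independent noise for each value, which hold no deviation of a whole library like that of siCtrl 2. Promoter words, 3′ UTR words, exon overlap and relative depth were computed in Python 3.11.15 with pandas 2.3.3. GENCODE 29 and RefSeq are of GRCh38, another build than hg19, and were matched by symbol, so only RefSeq promoter coordinates are printed.

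Named genes were every member called, the 3 highest and 3 lowest log2 changes and mean levels in each subunit, 6 members by biology, up to 4 called genes per related list, and all regulators and other-named ribosome proteins. MRPL10, MRPL18, MRPL22, MRPL27, MRPL34, MRPL39, MRPL40, MRPL42, MRPL46, MRPS16, MRPS25, MRPS33 and SLC5A3 were named after their values were seen. The members and lists were chosen with earlier results of these data known, and 242 of 246 list entries matched the table. Alternatives were other pseudocounts (0.1 and 5), filters (none, or 5 TPM), scalings (median-ratio, quantile), the replicate number as a block, each library left out, subunits by structure, and sums without the highest member. MT-RNR1 and MT-RNR2, the mitochondrial rRNAs, were not analysed here.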

Additional observations from a re-analysis of the deposited data

How the results depend on the processing

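For single genes under other settings, 571 values stayed on the same side of the threshold, 70 kept direction but no longer passed and 7 newly passed. Called values changed direction 0 times. Values called in neither fit could change sign and were counted among the 571. Of the 75 tested members, 14 changed sign with median-ratio scaling and 16 without siCtrl 2. All genes called were 1970 (1334 higher, 636 lower), with 1034 higher and 904 lower after median-ratio scaling and 1018 higher and 965 lower after quantile normalization, which each moved the median of all genes by less than 0.1. Without the filter no MRPS gene was lower (0, against 1). With median-ratio scaling 0 MRPS genes were higher and the MRPL median was 0.0165, against 0.0729, and the MRPS median -0.0230, against 0.0317. With quantile normalization 0 MRPS genes were higher, 2 were lower (MRPS10 and MRPS31) and the medians were 0.0208 for MRPL and -0.0195 for MRPS. The log2 change of the MRPL to MRPS ratio was 0.0016, and 0.0205 without the highest member of each subunit.

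Leaving out each library in turn gave 766 to 3802 genes called, 0 to 3 MRPL genes higher, 0 to 3 lower, 0 to 2 MRPS genes higher, 0 to 2 lower, MRPL medians of 0.0188 to 0.0975, MRPS medians of 0.0042 to 0.0543 and ratio changes of -0.0066 to 0.0119. The highest count was without siCtrl 2 (3802). The causes were not tested. With the replicate number as a block 739 genes were called, with 0 MRPL genes lower, 0 MRPS genes higher and 0 MRPS genes lower. Same-numbered libraries had correlations of deviations of -0.43, -0.54 and -0.04, and no library correlated best with its own number. The labels do not tell whether the replicate numbers pair the libraries. Deviations taken from the mean of only 3 libraries a group cannot decide it. The adjusted p ranged from 0.00188 to 0.0709 for MRPL45, from 0.0121 to 0.153 for MRPS31 and from 0.00355 to 0.0975 for MRPS6. With 3 libraries a group, the median standard error of 0.0988 on the log2 scale limits what can be detected.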
